A study of Mus musculus with 93 samples.

Results

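This report describes the young olfactory sensory neurons that the labels call Early Immature Neuron, divided by how much mRNA of Omp, the olfactory marker protein, each cell held. The 2 sets were selected on the measured level of Omp alone: 13 cells at an FPKM of 100 or more (high Omp cells) and 11 cells at an FPKM under 10 (low Omp cells), of 27 cells of the stage and 85 cells in all. The 3 cells between the thresholds were left out of both sets and are shown beside them. FPKM is a level scaled to transcript length and library size. Because Omp chose the sets, its own values and the differences in other genes of the same cells are given as a description.

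RNA sequencing was done on hand-picked single cells of C57BL/6 mice, taken from olfactory epithelium after dissociation, with cDNA primed with oligo(dT) and amplified by PCR. The labels name 5 stages, with 25 Mature Neuron, 13 Late Immature Neuron, 27 Early Immature Neuron, 9 Precursor and 11 Progenitor cells, and 8 further libraries were technical repeats. The basis of a cell's stage, like the age, sex and number of the mice, is not given in the sources used here. Without a named animal each set counts as 1 sample, so no test, standard error or p-value is given and every spread is over cells.

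Olfactory sensory neurons arise throughout life from basal progenitors, pass through a phase in which they extend an axon and choose an odorant receptor (Olfr) gene, and then mature. Mature neurons carry odorant signals from receptor to G protein, adenylyl cyclase, a cyclic nucleotide gated channel and a chloride channel in the cilia. Omp is abundant in mature neurons and is their standard marker, while Gap43, a growth cone protein, marks immature ones.

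The libraries held 0.797 to 10.6 fragments per FPKM and kilobase, recovered from the steps between low FPKM values, with a median of 6.01 in high Omp cells and 6.97 in low Omp cells. High Omp cells had a median of 4476 genes at an FPKM of 1 or more (3310 to 6414), and low Omp cells 3598 (2867 to 4569). The mitochondrial genome made up a median of 40.9% of the summed FPKM in the high set and 46.7% in the low set. Of the high Omp cells, 7 carried cell numbers from D316 to D434, against 10 of the 11 low Omp cells (all but D187), so cell number and Omp level went together. The labels do not say what the numbers stand for.

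Of the high Omp libraries, 3 stood apart from the rest, with Gap43 at an FPKM under 3. D357 held genes of T cells: Trbc1 and Trbc2, which encode T cell receptor chains, at an FPKM of 2292 and 1111, and Cd3g at 805. Its mitochondrial share was 10.3%, its Gng8 was 0, and its top receptor reached only 15.03. D244 held Cbr2, a sustentacular (supporting) cell gene, at 2436 and Ascl3, a microvillous cell gene, at 274.5, with Gap43 at 0 and a mitochondrial share of 85.2%. D215 was the shallowest library, at 0.797, with Gap43 at 0, Cbr2 at 342.1 and Gng8, a G protein gamma subunit of immature neurons, at 366. These libraries remain in the sets as the Omp rule requires, and the main results are also given without D357 and without all 3.

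Omp ran from 115 (D357) through a median of 1225 to 6224 (D425) in high Omp cells, and from 0 through a median of 0 to 9.39 (D424) in low Omp cells. Just inside the upper threshold were D357 at 115 and D200 at 129, and just outside it D431 at 49.4 and D336 at 40.8. Just inside the lower threshold were D424 at 9.39 and D187 at 8.80, and just outside it D197 at 16.3. Omp was listed at 0 in 6 of the 11 low cells, where 3 fragments would have given 0.146 to 0.679, while the other 5 held 41.9 to 151 recovered fragments. PCR copies are not independent molecules, so these figures cover counting only. Omp lies on mm10 chr7:98143360-98145502, on the minus strand within the Capn5 gene (chr7:98121559-98178274, same strand), and 0 of 92 Capn5 exon records overlap it.

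Repeat libraries, which the rule did not use, exist for 3 of the 24 cells. Omp was 648 in D244 and 825 in its repeat, 129 in D200 and 20.6 in its repeat, and 8.80 in D187 and 15.1 in its repeat. By their repeats alone, D200 and D187 would each have fallen between the thresholds, and D244 would have stayed in the high set. Across stages the median of Omp was 0 in both earlier stages, 49.4 over all Early Immature Neuron cells, and then 4584 (Late Immature Neuron) and 6257 (Mature Neuron). The high Omp cells thus spanned levels from below to above the lowest Late Immature Neuron cell, which was at 2724. A single Precursor cell reached an Omp of 378.5.

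**Figure D1:**
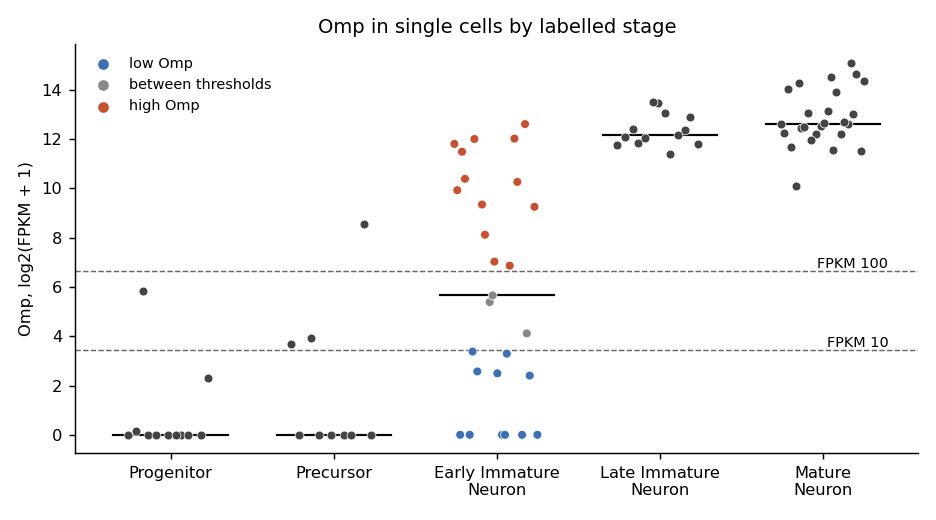
Omp of every first library by labelled stage, as log2(FPKM + 1), with the Early Immature Neuron cells coloured by set, medians as bars and dashed lines at the thresholds. The high Omp cells span an FPKM of 115 to 6224 and overlap the Late Immature Neuron cells, while 6 low Omp cells sit at 0.

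More genes were higher than lower in high Omp cells, by a smaller margin once the median of all genes was subtracted. Among 3936 genes detected (an FPKM of 1 or more) in 50% or more of either set, 464 (11.8%) were higher by 2 or more and 117 (2.97%) lower by 2 or more, as a difference of mean log2(FPKM + 1), high minus low. That scale understates the change of genes with low values. Of the 3936 genes, 1349 passed the detection filter through the high set alone and 460 through the low set alone. The filter thus favoured a higher value in more genes than it favoured a lower one. The median difference over all genes was 0.41, with 2399 genes (61.0%) higher and 1537 lower, so each difference is best read against 0.41. After this median was subtracted, 287 genes were higher and 238 lower by 2 or more, and the share of higher genes among those past 2 was 54.7% in place of 79.9%. That share was 72.8% after rescaling to the sum without mitochondrial genes. Without D357, 579 of 4400 genes (13.2%) were higher and 100 (2.27%) lower. Of the genes past 2 in all cells, 429 of the 464 higher genes and 93 of the 117 lower genes were past 2 there as well. Without D215, D244 and D357 the figures were 732 of 4505 (16.2%) and 125 (2.77%), and among cells D316 to D434, 669 of 4290 (15.6%) and 228 (5.31%).

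Stoml3, a stomatin-like membrane protein of olfactory cilia, had the largest difference of any annotated gene compared. It ran from 24.5 (D200) through a median of 1191 to 4251 (D425) in high Omp cells and from 0 through 0.0597 to 9.44 (D187) in low Omp cells. By first libraries every high Omp cell was above every low Omp cell, which held for Stoml3 alone of the 3936 genes (0.0254%), while no gene (0%) had every high cell below every low cell. The difference was 7.91, and it was 8.04 without D357, 7.86 without the 3 libraries and 7.597 among D316 to D434. Stoml3 passed the detection filter through the high set alone, as did 1349 of the 3936 genes. The filter thus favoured a higher value in the high set. In the repeat libraries Stoml3 was 9.33 in D200, 729 in D244 and 9.40 in D187, so by its repeat D200 lies below the 9.44 of the first D187 library. The cells between the Omp thresholds held Stoml3 at 170.3 (D197), 3.36 (D336) and 379 (D431). Its median was 4712 in Mature Neuron cells, 4272 in Late Immature Neuron cells and 0 in Precursor cells.

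Cartpt, the precursor of the CART neuropeptides, ran from 0.222 through 83.7 to 977 in high Omp cells and from 0 through 0 to 2.59 in low Omp cells. In 11 of 13 high cells it was above every low cell, and the difference was 5.48. Nxnl2, a thioredoxin-like gene, ran from 0 through 65.4 to 1204 against 0 through 0 to 2.14, a difference of 5.25. Again 11 high cells lay above all low cells. Cartpt and Nxnl2 passed the detection filter through the high set alone, which favoured a higher value in that set. Unlike Cartpt, whose median was 518 in Mature Neuron cells, Nxnl2 had a median of 5.13 there and 238 in Late Immature Neuron cells.

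Rnf128, an E3 ubiquitin ligase, ran from 0.12 through 90.9 to 533 in the high set and from 0 through 0 to 1.01 in the low set, with a difference of 5.15. Faim2, an inhibitor of Fas-driven cell death in neurons, ran from 1.28 through 68.2 to 159 against 0 through 0.159 to 3.95, a difference of 4.78. For both genes 10 of 13 high cells were above every low cell. Both passed the detection filter through the high set alone, which favoured a higher value in that set. Stom, the stomatin gene itself, ran from 1.9 through 167 to 1504 against 0 through 1.07 to 91.3, and its difference was 5.08.

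The sets also overlapped in the other 6 of the 12 highest genes. BC052486 differed by 5.22, Plekhb1 by 5.10, Ctxn3 by 4.88, Acbd7 by 4.80, Fam213b by 4.79 and Psen2, a presenilin subunit of gamma-secretase, by 4.72. In these 6 genes 5 to 9 high Omp cells exceeded all low Omp cells. BC052486, Ctxn3, Fam213b and Psen2 passed the detection filter through the high set alone, which favoured a higher value in that set. Acbd7 reached 312 in the low cell D371 and Plekhb1 reached 377 there. Fam213b overlaps Mmel1 on the opposite strand, and whether the counting used strand is not given in the sources used here, so its value is uncertain. Without D357 the smallest of the 12 differences was 4.93, and without the 3 libraries 4.75, both in Psen2.

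**Figure D2:**
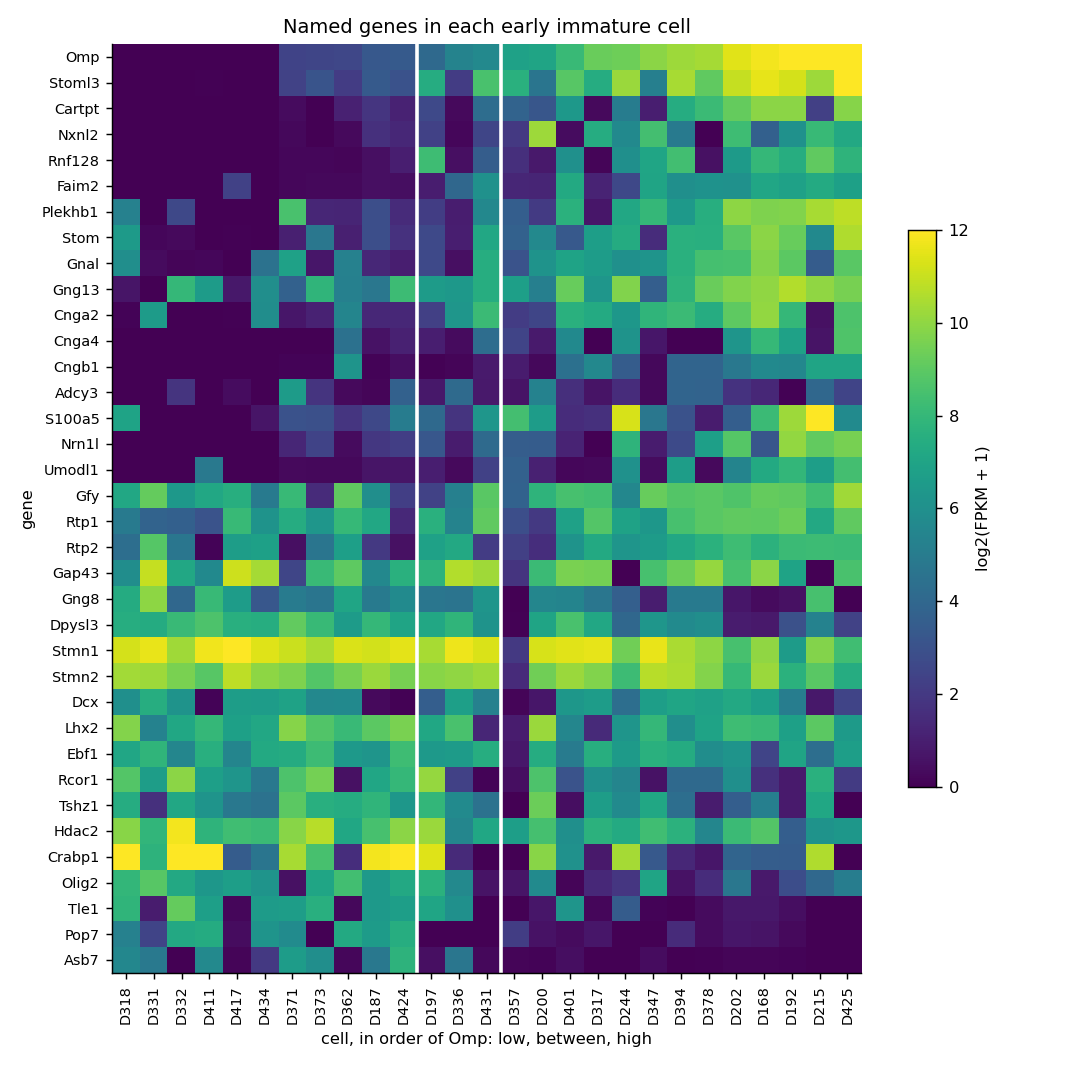
Level of Omp and of genes named in the text (rows) in each of the 27 Early Immature Neuron cells (columns, in order of Omp, white lines between the sets), as log2(FPKM + 1) by colour from dark (0) to yellow (12 or more). Stoml3 is brighter in all 13 high Omp cells than in any of the 11 low Omp cells, and the other genes vary from cell to cell within each set.

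Of 13 listed odorant transduction genes 12 passed the detection filter. These 12 were higher in high Omp cells, beside 61.0% of all genes, and 7 were higher by 2 or more, against 11.8% of all genes. Their median difference was 2.61, against 0.41 for all genes. It was 2.86 without D357 and 2.94 without the 3 libraries (all genes 0.56 and 0.67), and 1.38 among D316 to D434. Of the 12, 5 (Adcy3, Ano2, Cnga4, Cngb1 and Pde4a) passed through the high set alone, as did 1349 of the 3936 genes, so the filter favoured a higher value in the high set and these figures describe the measured members. Gnal, the G protein alpha subunit coupled to odorant receptors, ran from 7.34 (D357) through 123 to 869.6 (D168) in the high set and from 0 through 1.01 to 117 (D371) in the low set. In 7 of 13 high cells it was above every low cell, and the difference was 4.59. Its partner gamma subunit Gng13 ran from 11.1 through 609 to 1586 against 0 through 36.3 to 302, a difference of 3.58. Gnal overlaps Mppe1, and Gng13 overlaps Chtf18, on the opposite strand.

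The cyclic nucleotide gated channel has 3 subunits in these neurons. Cnga2, the principal one, ran from 0.431 (D215) through 198 to 1059 (D168) in high Omp cells and from 0 through 1.25 to 94.6 (D331) in low Omp cells, a difference of 4.52. In 9 of 13 high cells Cnga2 was above all low cells. Cngb1 ran from 0.191 through 20.8 to 128 against 0 through 0 to 73.1 (D362), a difference of 3.43, and Cnga4 from 0 through 4.52 to 412.1 against 0 through 0 to 21, a difference of 3.01. Both modulatory subunits were below an FPKM of 1 in most low cells: Cngb1 reached 1 in 1 of 11 and Cnga4 in 2 of 11.

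Downstream and regulatory members differed less. Ano2, the calcium-activated chloride channel, differed by 2.65, Pde4a, a phosphodiesterase, by 2.57, Ric8b, a chaperone of the G protein, by 1.73, and Pde1c by 1.09. Adcy3, the adenylyl cyclase of the cilia, ran from 0.0385 through 2.11 to 39.2 in high Omp cells and from 0 through 0.248 to 96.4 (D371) in low Omp cells, a difference of 0.75. The sets overlapped fully for Adcy3, whose median was 89.9 in Mature Neuron and 60.6 in Late Immature Neuron cells, and which overlaps Cenpo on the opposite strand. Gnb1 at 0.25 and Slc12a2, the chloride importer, at 0.15 lay below the all-gene median. Slc24a4, a calcium exchanger, did not pass the detection filter.

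Promoters of the transduction genes were searched for CCCNNGGG, the core of the sites bound by Ebf factors, which were first described as binding promoters of olfactory genes. The motif was chosen with results known, and its 2 strands read alike. Of 13 genes, 11 had a RefSeq promoter (GRCm38.p6, 250 bases before to 50 after a start), and 7 of their 19 promoters (36.8%) held the motif, against 13.7% of all 32851 promoters of that length. The 7 genes were Gng13, Cnga2, Cnga4, Cngb1, Ano2, Slc24a4 and Pde4a. Windows of 3 of them are shown, for a G protein subunit and both kinds of channel, with the motif in capitals, 5′ to 3′ on the strand of the gene, and up to 30 bases on either side (in Gng13 2 matches overlap, so 9 letters are in capitals): Gng13 at chr17:25717047-25717114 (plus strand), Cnga2 at chrX:71991753-71991820 (plus) and Ano2 at chr6:125711091-125711158 (plus).
Gng13: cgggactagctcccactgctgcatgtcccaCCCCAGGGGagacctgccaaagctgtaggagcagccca
Cnga2: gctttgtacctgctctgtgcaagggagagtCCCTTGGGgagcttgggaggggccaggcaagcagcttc
Ano2: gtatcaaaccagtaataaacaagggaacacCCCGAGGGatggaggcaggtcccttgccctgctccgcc
The first base in capitals lay 95 bases before the start in Gng13, 66 in Cnga2 and 67 in Ano2. The match is a description of letters and not of binding. It did not set higher genes apart from the rest: 17.8% of 473 promoters of genes higher by 2 or more held it, 23.8% of 126 of genes lower by 2 or more, and 18.4% of 3783 of all genes compared. Another motif, TAATTA, was also counted in these promoters. It was in 0 of the 19 transduction promoters, beside 5.29% of all promoters and 2.43% of those of genes compared.

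Of 8 listed genes of mature neurons and of receptor traffic 7 passed the filter. All 7 were higher, beside 61.0% of all genes, and 5 by 2 or more (11.8% of all genes were). Their median difference was 3.55 (3.18 without D357, 2.65 without the 3 libraries, 2.06 among D316 to D434). Of the 7, 3 (Stoml3, Nrn1l and Umodl1) passed through the high set alone, so the filter favoured a higher value in the high set and these figures describe the measured members. Rtp1 and Rtp2 bring odorant receptors to the cell surface. Rtp1 ran from 2.99 (D200) through 365 to 638 (D192) in high Omp cells and from 1.57 through 71.7 to 267 (D417) in low Omp cells, a difference of 1.84, with 7 of 13 high cells above all low cells. Rtp2 ran from 2.01 through 156 to 309 against 0.0847 through 24.6 to 452 (D331), a difference of 2.41, and no high cell exceeded the highest low cell. Gfy, a Golgi protein of olfactory neurons listed as Gm581 in the deposited annotation, ran from 12.5 through 413 to 1235 against 1.8 through 144 to 568, a difference of 1.90. Rtp1 and Gfy were at an FPKM of 1 or more in all 24 cells, so both were already measured in cells without Omp.

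S100a5, a calcium-binding protein of mature olfactory neurons, ran from 0.906 (D378) through 53.2 to 4165 (D215) in the high set and from 0 through 2.56 to 123 (D318) in the low set. Its difference was 3.90, but 2.53 without the 3 libraries and 1.68 among D316 to D434, with its 2 highest values in D215 and D244. Nrn1l, a neuritin-like gene, ran from 0 through 10.8 to 1073 against 0 through 0 to 4.4, a difference of 4.41, and 10 of 13 high cells were above all low cells. Umodl1 differed by 3.55 and was at an FPKM of 1 or more in 9 high cells and 1 low cell.

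Genes of immature neurons were lower in high Omp cells, and by less than the transduction genes were higher. Of 19 listed genes 17 passed the filter, 14 were lower and 3 higher, beside 61.0% of all genes higher. By 2 or more, 2 were lower (2.97% of all genes were), and the median was -1.14. That median was -0.54 without D357, -0.40 without the 3 libraries and -0.62 among D316 to D434, so its size moved by more than 1.5 times with these libraries. The 3 libraries were set apart by low Gap43, a member of this list, so leaving them out favoured a higher value in the high set. Dpysl3, a collapsin response mediator of growing axons, ran from 0.0572 (D357) through 38.4 to 372 (D401) in high Omp cells and from 93.9 through 190.04 to 558 in low Omp cells. In 10 of 13 high cells it was below every low cell, and the difference was -3.38. Gng8 ran from 0 through 11.6 to 366 (D215) against 8.7 through 53.4 to 989.8 (D331), a difference of -2.97, and 6 high cells were below every low cell.

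Stmn1, a stathmin that destabilises microtubules, ran from 3.02 (D357) through 987 to 3121 in the high set and from 1253 through 2552 to 4398 in the low set, and 8 high cells were below all low cells. Its difference was -1.96, and -1.35 without D357. Stmn2 differed by -1.14 and by -0.54 without D357. Dpysl5 differed by -1.96, Marcks by -1.82, Tubb2b by -1.63 and Tubb3 by -1.48. Dcx, a microtubule protein of migrating neurons, differed by 0.01, and Stmn3 was higher, at 0.54.

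Gap43 did not separate the sets. It ran from 0 (D244 and D215) through 367 to 1094 (D378) in high Omp cells and from 4.77 (D371) through 193 to 2155 (D417) in low Omp cells. The difference was -0.64 with all cells, -0.21 without D357, 1.28 without the 3 libraries chosen for their low Gap43 and 0.35 among D316 to D434, so its sign turned with the cells included. The repeat of D244 held Gap43 at 146. High Omp cells other than those 3 held Gap43 at 124 or more beside Omp at 129 or more, so both markers were present together in 10 cells. In Late Immature Neuron cells the median of Gap43 was 1.19.

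**Figure D3:**
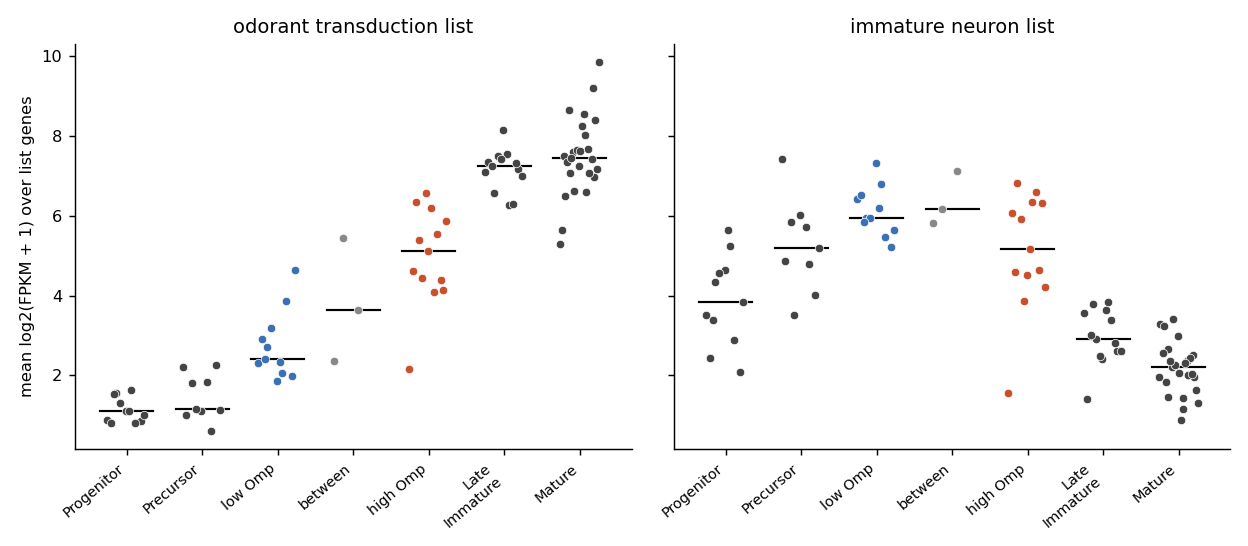
Mean log2(FPKM + 1) over the odorant transduction list and over the immature neuron list in each cell (points), by stage, with Early Immature Neuron cells divided by Omp and medians as bars. The transduction medians are 2.41 in low Omp, 5.11 in high Omp and 7.24 in Late Immature Neuron cells, and the immature medians 5.96, 5.17 and 2.91.

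The mean level over the transduction list ran from 1.85 through 2.41 to 4.63 in low Omp cells and from 2.16 (D357) through 5.11 to 6.57 in high Omp cells, on the log2(FPKM + 1) scale. Without D357 its lowest value in the high set was 4.09. Precursor cells had a median of 1.15, Mature Neuron cells 7.45 and Late Immature Neuron cells 7.24, so the high Omp cells lay between the low Omp cells and the later stages. The immature list ran the other way at later stages, with medians of 5.18 in Precursor cells, 5.96 in low Omp cells, 5.17 in high Omp cells and 2.91 in Late Immature Neuron cells. High Omp cells thus held the immature list at a level nearer to that of low Omp cells than to that of Late Immature Neuron cells. Without the 3 libraries their median was 6.00. Those libraries were set apart by low Gap43, a member of this list, so leaving them out favoured a higher level.

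Few genes of earlier stages were measured. In the precursor list 6 of 12 genes passed the filter, 5 were lower and 1 higher, beside 61.0% of all genes higher. The median was -1.10 (-1.19 without D357, -1.53 without the 3 libraries). Of the 6, 3 passed through the low set alone, as did 460 of the 3936 genes. The filter thus favoured a lower value in the high set, and these figures describe the measured members. Nhlh2, a basic helix-loop-helix factor, ran from 0 through 0.24 to 60.4 in high Omp cells and from 0 through 32.9 to 222 in low Omp cells, a difference of -2.34. Hes6 ran from 0.454 through 4.44 to 1221 (D200) against 0.554 through 48.5 to 833 (D332), and its difference was -0.91. Neurod1 was at an FPKM of 1 or more in 1 high cell, D215 at 67, and in 2 low cells. None of the 10 progenitor genes passed the filter, and Sox2 was highest in D244, at 36.7. In the cell cycle list 4 of 26 genes passed (Pcna, Cks2, Ube2c and Hmgb2), with a median of 1.002. All 4 were higher, beside 61.0% of all genes, and 0 by 2 or more (11.8% of all genes were). Hmgb2, at 0.40, lay at the all-gene median and was the lowest of them.

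Regulators of receptor choice were lower more often than higher: 12 of 14 passed the filter, 9 were lower and 3 higher, beside 61.0% of all genes higher. By 2 or more, 3 were lower and 0 higher, beside 2.97% and 11.8% of all genes. The median was -1.11 (-0.63 without D357, -0.57 without the 3 libraries, -1.42 among D316 to D434). Rcor1, the CoREST corepressor that works with the histone demethylase Kdm1a, ran from 0.358 through 16.2 to 399 in high Omp cells and from 0.464 through 136 to 954 in low Omp cells, a difference of -3.11. Hdac2, a histone deacetylase, ran from 11.1 through 161 to 442 against 141 through 361 to 3563 (D332), a difference of -2.10, with 6 high cells below every low cell. Tshz1, a zinc finger factor, differed by -2.41 (0 through 19 to 629.9 against 2.13 through 146 to 507). Kdm1a itself was higher, at 0.62.

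Lhx2, a homeodomain factor needed for receptor gene expression, ran from 0.86 (D357) through 113 to 1156 in high Omp cells and from 38.6 through 279 to 917 in low Omp cells, a difference of -1.69 (-1.23 without D357). Ebf1 ran from 0.705 (D357) through 93.5 to 197.3 against 42.7 through 153 to 304, a difference of -1.27 (-0.86 without D357). Ebf2 differed by -0.95 and Ebf3 by -1.30, while Ebf4 was higher, at 0.41, the all-gene median. Atf5, a stress-induced factor tied to receptor feedback, differed by -0.14, and by 0.30 without D357, with values of 4.55 through 293 to 1211 against 54.8 through 279.6 to 1433. Atf5 overlaps Il4i1 and Nup62 on the opposite strand.

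Of 23 chromatin regulators 14 passed, 12 were lower and 2 higher, beside 61.0% of all genes higher. The median was -0.70 (-0.57 without D357, -0.73 without the 3 libraries). None was past 2, beside 11.8% of all genes higher and 2.97% lower by 2 or more. Of the 14, 5 passed through the low set alone and 2 through the high set alone. The filter thus favoured a lower value for those 5 and a higher value for those 2. Hmgn1, a nucleosome-binding protein, ran from 0.614 through 102 to 398.3 in high Omp cells and from 2.82 through 339.6 to 844 in low Omp cells, a difference of -1.99. Ezh2, the H3K27 methyltransferase, differed by -1.58, Tet1 by -1.34 and Cbx3, a heterochromatin protein, by -1.29. Ehmt2, an H3K9 methyltransferase, was higher by 1.87, at an FPKM of 1 or more in 7 of 13 high cells and 3 of 11 low cells.

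The lowest gene in high Omp cells was Crabp1, a cytoplasmic retinoic acid binding protein. It ran from 0 (D357 and D425) through 10.1 to 1516 (D215) in high Omp cells and from 1.97 (D362) through 1399 to 5833 (D318) in low Omp cells, a difference of -4.72 (-4.37 without D357, -5.57 without the 3 libraries). At an FPKM of 100 or more it was found in 3 of 13 high cells (D200, D215 and D244) and in 8 of 11 low cells. The low cells without it at that level, D362, D417 and D434, were at 1.97, 10.3 and 24.5. Its median was 108 in Precursor cells and 0 in Mature Neuron and Late Immature Neuron cells.

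Tle1, Olig2 and Mex3a were also among the 12 lowest genes. Tle1, a Groucho corepressor, ran from 0 through 0.277 to 75.3 in high Omp cells and from 0.155 through 103 to 565 in low Omp cells, a difference of -4.37. Olig2, a basic helix-loop-helix factor, ran from 0.131 through 2.77 to 126 against 0.464 through 134 to 477, a difference of -3.83. Mex3a, an RNA-binding protein, ran from 0 through 0.229 to 152 (D215) against 0.201 through 70.2 to 126, a difference of -3.59. Tle1 and Mex3a passed the detection filter through the low set alone, as did 460 of the 3936 genes. The filter thus favoured a lower value in the high set for these genes. Olig2 was unlike Mex3a at other stages: its median was 1.24 in Precursor cells and 30.9 in Late Immature Neuron cells, and that of Mex3a 63.3 and 0.

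Asb7, a ubiquitin ligase adaptor, was below an FPKM of 1 in all 13 high Omp cells (highest 0.349) and at 1 or more in 8 of 11 low Omp cells, with a median of 28.1 and a highest value of 218 there. Its difference was -3.84. Pop7, a ribonuclease P subunit, differed by -4.53 (0 through 0.295 to 3.6 against 0 through 72.7 to 178.3) and lies within the Epo record on the same strand, so its value is uncertain. Pop7 was at 0.502 in D200 and 178.4 in its repeat, and at 93.9 in D187 and 0.26 in its repeat, so in both cells the repeat went the other way. Med4, a Mediator subunit, differed by -3.90, Srpk2 by -3.45, C1qbp by -3.41, Col9a2 by -3.39 and Ap1m2 by -3.30. Srpk2 overlaps Kmt2e on the opposite strand. Asb7, Pop7, Med4, Col9a2 and Ap1m2 passed the detection filter through the low set alone, which favoured a lower value in the high set. Of the 12 lowest annotated genes, all kept a difference past -2 without D357 and without the 3 libraries.

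Genes of the unfolded protein response are tied to receptor expression in these neurons. Of 17 genes 14 passed (4 through the high set alone), and 13 were higher and 1 lower, beside 61.0% of all genes higher. None was past 2, beside 11.8% of all genes higher by 2 or more. The median was 1.26, against 0.41 for all genes. It was 1.25 without D357 and 1.40 without the 3 libraries (all genes 0.56 and 0.67), and 2.34 among D316 to D434. Manf, a secreted stress-induced factor of the endoplasmic reticulum, ran from 1.81 through 139 to 562 in high Omp cells and from 0.154 through 15.1 to 1006 (D331) in low Omp cells, a difference of 1.796. Xbp1 differed by 1.76, Calr by 1.68, Hsp90b1 by 1.67 and Hspa5, the chaperone BiP, by 1.28. Calr and Hsp90b1 were at an FPKM of 1 or more in all 13 high cells and in 8 of 11 low cells each. Atf4 was the lower one, at -0.29, and at 0.12 without D357.

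Of nuclear genes of oxidative phosphorylation all 29 passed the filter, 26 were higher and 3 lower, beside 61.0% of all genes higher, and 3 were higher by 2 or more, beside 11.8% of all genes. Their median was 0.81, beside 0.41 for all genes. It was 0.86 without D357 and 0.96 without the 3 libraries, where the all-gene medians were 0.56 and 0.67. Sdhb, a subunit of complex II, ran from 43.2 through 225 to 464 in high Omp cells and from 0.984 through 69.8 to 691 (D331) in low Omp cells, a difference of 2.19. Ndufc1 differed by 2.39 and Uqcrc1 by 2.28. Of 84 cytoplasmic ribosomal protein genes 77 passed, 69 were lower and 8 higher, beside 61.0% of all genes higher. None was past 2, beside 11.8% of all genes higher and 2.97% lower by 2 or more. The median was -0.62 (-0.80 without D357, -0.94 without the 3 libraries).

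Rps10 ran from 132 (D425) through 536 to 2041 (D357) in the high set and from 659.96 through 1261 to 2471 in the low set, a difference of -1.26. In 10 of 13 high cells Rps10 was below every low cell. Without the 3 libraries it was the only gene of 4505 with every high cell below every low cell. Rps6 differed by -1.45 and Rps7 by -1.31, while Rpl22l1, a paralog of Rpl22, was higher by 1.98. Ribosomal protein genes have many processed pseudogenes, so reads may be divided between copies. The median of Rps10 was 954 in Precursor, 478 in Mature Neuron and 370.3 in Late Immature Neuron cells.

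In the cilia list 14 of 23 genes passed, 4 of them through the high set alone. Of the 14, 10 were higher and 4 lower, beside 61.0% of all genes higher. By 2 or more, 3 were higher and 1 lower, beside 11.8% and 2.97% of all genes. The list median was 0.41, against 0.41 for all genes. That median was 0.59 without D357 and 0.87 without the 3 libraries (all genes 0.56 and 0.67), and 0.20 to 0.75 with 1 cell left out. Ift81, an intraflagellar transport protein, ran from 1.11 through 37.7 to 208 in high Omp cells and from 0.0475 through 0.885 to 96 (D371) in low Omp cells, a difference of 3.13. B9d1 differed by 2.40, Ift20 by 2.25, and Kif3a, a kinesin motor, by -2.29. In the synapse list 10 of 16 passed, 8 were higher and 2 lower, beside 61.0% of all genes higher. By 2 or more, 2 were higher (11.8% of all genes were), and the median was 0.63. Without D357 that median was 0.79, and 4 of 12 genes were higher by 2 or more (13.2% of all genes were). The synapse median was 1.23 without the 3 libraries, and 0.32 to 0.90 with 1 cell left out. All-gene medians were 0.56 without D357 and 0.67 without the 3 libraries. Of the 10, 5 passed the filter through the high set alone. Snap25, a vesicle fusion protein, ran from 3.09 through 90.8 to 1220.5 against 0 through 1.12 to 201 (D417), a difference of 2.999. Syt1, the calcium sensor of release, differed by 2.62.

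In the axon guidance list 6 of 18 passed, 3 were higher and 3 lower, beside 61.0% of all genes higher. The list median was 0.06 (-0.36 after the all-gene median was subtracted). That median was 0.57 without D357 and 0.89 without the 3 libraries, where the all-gene medians were 0.56 and 0.67, and it ran from -0.14 to 0.83 with 1 cell left out. Efna3 differed by 1.12 and Nrp1, a semaphorin receptor, by -1.27. Housekeeping genes had a median of -0.07, with 6 of 12 measured genes higher and 6 lower, beside 61.0% of all genes higher. Of these Hprt differed by 3.74, Aldoa by 3.34 and Ldha by 2.68. Each reached its highest value in D357 (Hprt 471.5, Aldoa 1337 and Ldha 2409.5). Without D357, 2 housekeeping genes were higher by 2 or more, beside 13.2% of all genes. Hprt and Ldha passed the detection filter through the high set alone, which favoured a higher value there. In the dissociation stress list 4 of 13 passed, 2 higher and 2 lower, beside 61.0% of all genes higher. Its median was 0.25 (-0.16 after the all-gene median was subtracted), with Jun at -2.10. Of 37 mitochondrial genome genes 19 passed, 11 higher and 8 lower, near the 61.0% of all genes that were higher. Their median was 0.02 (-0.39 after the all-gene median was subtracted). None of the 3 receptor zone genes passed.

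**Figure D4:**
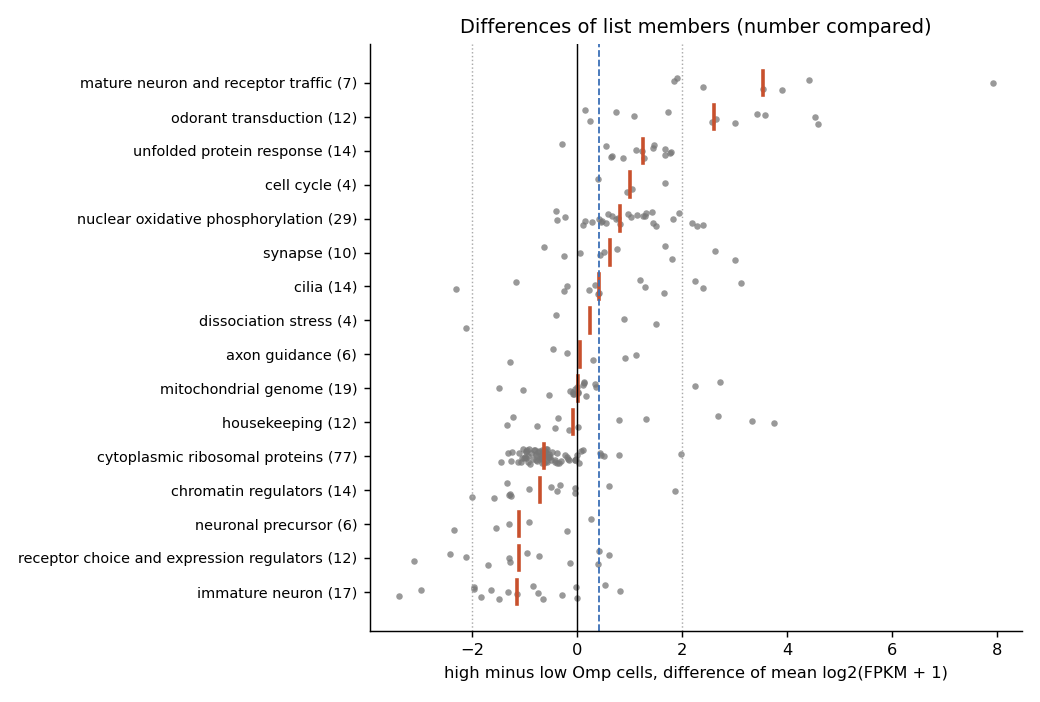
Difference of mean log2(FPKM + 1), high minus low Omp cells, for every measured gene of each list, with the list median as a red bar, the all-gene median of 0.41 as a dashed line and differences of -2 and 2 as dotted lines. The odorant transduction and mature neuron lists have medians of 2.61 and 3.55, and the immature neuron and receptor choice lists -1.14 and -1.11.

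Odorant receptor genes were fewer per cell in high Omp cells, with overlap between the sets. At an FPKM of 10 or more, high Omp cells held 0 through a median of 2 to 8 receptors and low Omp cells 1 through 3 to 15, a mean difference of -3.50 receptors (-3.93 without the 3 libraries, -4.57 among D316 to D434). The mean and SD over cells were 2.23 and 2.05 in the high set and 5.73 and 5.06 in the low set. At that level 5 or more receptors were found in 1 of 13 high cells (D244, with 8) and in 5 of 11 low cells. The number did not keep falling at later stages. Late Immature Neuron cells had a median of 2 and Mature Neuron cells 3, the same as the low set. In these stages 3 of 13 and 9 of 25 cells held 5 or more. At an FPKM of 100 or more, 2 of 13 high cells (15.4%) and 5 of 11 low cells (45.5%) held 3 or more receptors. These shares are counts of cells and are given without an interval, since no animal is named. At that level 26 receptors were found in low cells and 15 others in high cells, each in a single cell, of 1112 Olfr symbols in the table.

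The top receptor took a larger share of all receptor FPKM in high Omp cells. That share ran from 32.1% (D244) through 96.0% to 99.9% (D378) in the high set and from 22.8% (D318) through 45.5% to 99.8% (D417) in the low set, a mean difference of 21.7 percentage points (29.5 without the 3 libraries, 25.2 among D316 to D434). It was over 90% in 8 of 13 high cells and 3 of 11 low cells. Mature Neuron cells had a median of 98.5% and Late Immature Neuron cells 97.6%. The second receptor had a median FPKM of 12.5 in the high set and 111 in the low set, and the top receptor 646 and 289.

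Summed receptor FPKM did not separate the sets. It ran from 9.83 (D347) through 1020 to 9622 (D192) in high Omp cells and from 228 through 1164 to 3963 in low Omp cells. The mean difference of its log2 was -0.55 with all cells and 0.15 without the 3 libraries, so its sign turned. No receptor reached an FPKM of 100 in 3 high cells, D357, D347 and D215, whose top receptors were Olfr1384 at 15.03, Olfr325 at 3.39 and Olfr78 at 53.6. Olfr1384 was also the top receptor of D425, at 3886, and Olfr325 was at 13725 in the repeat library of another cell, D233.

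**Figure D5:**
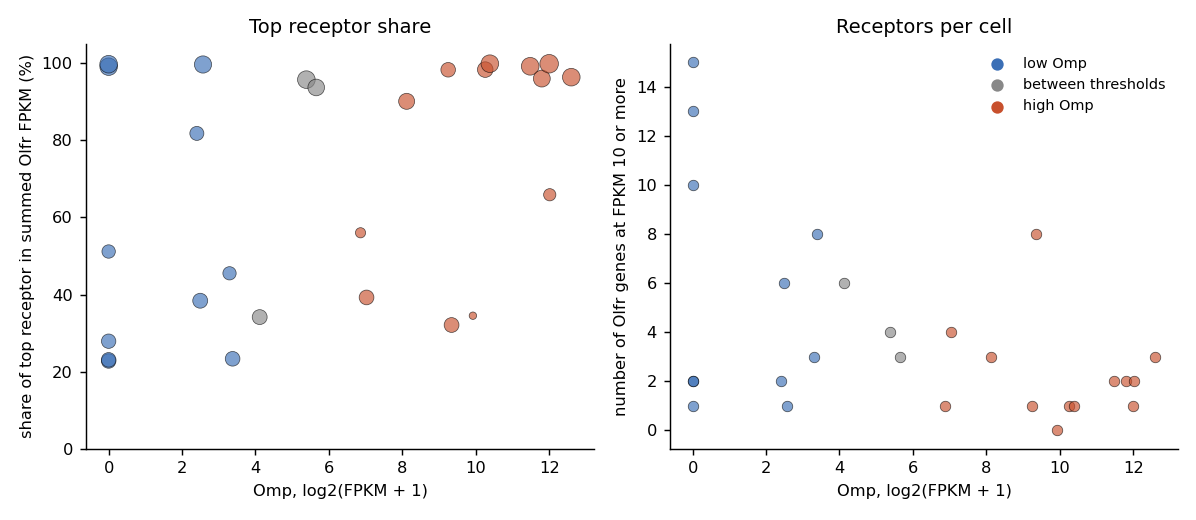
Share of the top receptor in summed receptor FPKM (left, larger points for a higher top receptor FPKM) and number of receptors at an FPKM of 10 or more (right) in each Early Immature Neuron cell against Omp as log2(FPKM + 1). Shares over 90% are seen in 8 of 13 high Omp cells and 3 of 11 low Omp cells.

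Each of the 8 high Omp cells with a top share over 90% was led by its own receptor. Olfr860 was at 9610 in D192 (chr9:19845011-19849751, mm10), Olfr393 at 4258 in D202 (chr11:73843195-73845304) and Olfr1384 at 3886 in D425 (chr11:49513369-49518654). Olfr1494 was at 3837 in D378, Olfr1013 at 1968 in D168, Olfr309 at 919 in D401, Olfr653 at 646 in D394 and Olfr63 at 285 in D317. Low Omp cells could also be led by a single receptor at a high level: Olfr330 at 3953 in D417, Olfr944 at 3465 in D331 and Olfr791 at 2691 in D362. D417 and D331 had Omp at 0, so a dominant receptor was measured in cells in which Omp was not detected.

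The repeats changed some of these receptors. In D200 the first library held Olfr610 at 320 and Olfr570 at 305, and the repeat held Olfr610 at 0 and Olfr570 at 850. In D187 Olfr876 was at 110 and at 0 in the repeat. In D244 the leading 3 receptors, Olfr741 at 344.1, Olfr328 at 266 and Olfr1322 at 261.8, were at 219, 71.0 and 141 in the repeat. Olfr610 and Olfr570 lie 604 kb apart on chromosome 7. Of all pairs of receptors at an FPKM of 100 or more within a cell, 2 of 7 in high cells and 2 of 31 in low cells were on the same chromosome, and 1 in each set lay within 1000 kb, in the low set Olfr1222 and Olfr1231 of D332, 177 kb apart.

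The authors' deposited table gives a Pseudotime score for 22 of the 24 cells. How it was computed is not given in the sources used here, and a pseudotime is an ordering by expression, so it is not taken as independent of Omp. It ran from 10.1 (D424) through 23.3 to 28.6 (D362) in the 11 low Omp cells and from 11.8 (D215) through 31.8 to 35.4 (D425) in 11 high Omp cells. D215 at 11.8, D244 at 20.3 and D200 at 27.1 lay within the range of the low set. D347 and D357 have no score there. The 3 cells between the thresholds were at 25.3 (D197), 26.7 (D336) and 29.5 (D431).

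Markers of most other cell types were low in most cells of both sets and high in a few. The summed FPKM of 8 sustentacular genes ran from 0.273 through 17.2 to 4038 (D244) in high Omp cells and from 0 through 3.62 to 154 (D318) in low Omp cells, and 5 high and 2 low cells were at 100 or more. The sum over 16 blood and immune genes was at most 99.9 (D357) in the high set and 11.4 (D424) in the low set, over 7 glia genes 12.9 (D244) and 246 (D424), over 11 stromal and endothelial genes 183 (D244) and 37.8 (D424), over 4 horizontal basal genes 32.3 (D244) and 7.82 (D417), and over 5 gland and microvillous genes 333 (D244) and 0.0263 (D417). Sox10, S100a9, Col3a1 and Cdh5 were at 0 in every cell of both sets. The sum over 9 genes of other chemosensory neurons ran from 60.1 through 138 to 379 (D168) in high Omp cells and from 19.9 through 123 to 661 (D371) in low Omp cells, and 9 high and 6 low cells were at 100 or more. Of these 9 genes Gnao1, a G protein alpha subunit, was the only one that passed the detection filter, with a difference of 0.12. The part of these cells in the differences was not tested beyond leaving them out. Without every cell that held a defining marker of another type at 100 or more (9 high and 9 low cells left), the transduction median was 3.43, the immature median -0.46 and the mean difference in top share 29.3 percentage points.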

How the data were processed

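Gene expression was measured in single cells by RNA sequencing. Per the submitters' processing notes, Cufflinks 2.2.1, TopHat2 2.0.14, cutadapt 1.2.1, Trim Galore and CASAVA 1.8.2 were used with mm10. Information on settings is not given in the sources used here. Deposited were the authors' FPKM for 32975 entries in 93 libraries, a Pseudotime score in a receptor table, and gene positions on mm10 (other values). Entries were reduced to the highest per symbol (32747 symbols), and first libraries were used.

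Differences are of mean log2(FPKM + 1), high minus low Omp, for genes at an FPKM of 1 or more in 50% or more of either set, and 2 was the fold used. Omp is not among the genes compared. Of the 25 gene lists the results give the sizes and name only some of the members. The ribosomal list was Rpl or Rps and a number without pseudogenes and S6 kinases. Members and lists were chosen with earlier results of these data known. Named genes were the 12 highest and 12 lowest annotated genes, the 4 most different members of each list, 17 genes always followed, and receptors leading a cell or at an FPKM of 100 or more. Other list members, Trbc1, Trbc2, Cd3g and Ascl3 were named after their values were seen.

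Depth was recovered from the steps between low FPKM of 2282 single exon genes, with at least 92.7% of values whole within 5%. Python 3.11.15, numpy 2.4.6, pandas 2.3.3, scipy 1.17.1 and matplotlib 3.10.9 were used, and the procedure was tested on simulated data. Alternatives were other pseudocounts, filters, scalings, thresholds and cell sets, and each cell left out. The last 3 (without D357, without D215, D244 and D357, and minus the all-gene median) were chosen after seeing the data.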

Additional observations from a re-analysis of the deposited data

How the results depend on the processing

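No paired analysis was possible because the cells carry no replicate numbers shared between the sets and no test was made. Counts of genes past 2 depended most on the processing. With a pseudocount of 0.1, 976 genes were higher and 272 lower, and with 10, 60 and 14. With medians over cells in place of means they were 1109 and 444, and with Omp of at least 300 against under 1 (10 and 6 cells) 815 and 288. Rescaled to the sum without mitochondrial genes, 226 were lower, and among cells D316 to D434, 228. Without cells that held a marker of another type at an FPKM of 100 or more, 873 were higher, and without D215, D244 and D357, 732. After the all-gene median was subtracted, 287 were higher and 238 lower. Leaving out 1 cell at a time gave 455 to 586 higher and 100 to 156 lower genes. Stoml3 differed by 5.63 with a pseudocount of 10 and by 10.14 by medians over cells. Of 486 values under alternatives other than a cell left out, 470 moved by less than the spread over cells (within 1.5 times for counts), and all 912 values with 1 cell left out did so. That spread is wide, so this says little of small differences. Leaving 1 cell out of sets of this size cannot move a mean by as much as that spread. For differences of means the result with 1 cell left out was therefore fixed in advance. Depth limits low values: 1 fragment is worth more in D215 than in any other member, and 2 of the 3 repeats moved a cell past an Omp threshold.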

Other observations

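T cell genes were present at low levels in some first libraries beside D357, which held Trbc2 at an FPKM of 1111. Trbc2 was at 4.23 in D187, 4.451 in D197, 6.17 in D200, 5.96 in D202, 5.68 in D168, 4.0003 in D192, 2.48 in D425 and 0.547 in D431. It was at 0 in the other Early Immature Neuron first libraries. In the repeat libraries of D187 and D200, Trbc1, Trbc2, Cd3g, Cd52 and Lsp1 were all at 0.

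The low Omp cells varied in Crabp1 and Gap43. Gap43 was at 1325 in D434, 1941 in D331 and 2155 in D417, where Crabp1 was at 24.5, 219 and 10.3. In D318, D411, D424 and D332 Crabp1 was at 5833, 5378, 5214 and 4195 and Gap43 at 57.1, 51.4, 193 and 147. These genes and cells were picked after their values were seen.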
